A study of Mus musculus with 24 samples.

Results

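The left ventricle of male C57Bl/6J mice labelled Bmx deficient (KO) was compared after 2 weeks of angiotensin II (AngII) infusion and after sham treatment, in which the study design names NaCl as the infusate. Each group had 3 samples, so 6 of the 24 samples of the series were compared, and each sample was hybridized to 1 Illumina bead array. Of the 45281 probes in the C57Bl/6J table, the 20319 (44.9%) with a detection p below 0.05 on at least 3 of its 12 arrays were analysed, and 10816 genes were represented among them by their brightest probe with 1 gene symbol. The other C57Bl/6J arrays were 3 wild type (WT) AngII and 3 wild type sham samples of the same sex and tissue, and the Bmx-deficient Balb/C groups, labelled TK, are set beside the C57Bl/6J results as values from their own table. The labels gave no age, no description of the KO allele, and no statement that replicates were separate animals, so the p-values reflect only how far these samples spread. Whole ventricle was profiled, and a bulk signal cannot tell fewer cells of a type from less RNA per cell.

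Angiotensin II is the effector peptide of the renin-angiotensin system and acts mainly through its type 1 receptor on vascular, cardiac and adrenal cells. Sustained infusion raises blood pressure, and the loaded ventricle is known to enlarge its myocytes, to re-express genes of the fetal heart and to lay down matrix made by fibroblasts. Bmx is a cytoplasmic tyrosine kinase of the Tec family, known in the heart for its expression in arterial endothelium and endocardium. The study asked how its loss bears on this hypertrophy.

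Median signals of the 12 arrays lay between 124.2 and 139.8, 17934 to 19262 probes were detected per array, and replicates correlated between 0.987 and 0.991. The number of arrays limits the precision. Across the 6 KO arrays the first principal component held 41.8% of the variance and separated the treatments, with AngII arrays at -17.6, -18.7 and -29.5 and sham arrays at 18.8, 20.7 and 26.3. On the second component, with 19.8% of the variance, sham replicate 2 stood alone at -29.6. Of the probes, 931 were detected on exactly 3 arrays and so just entered, with a median log2 level of 4.87, and 1431 detected on 2 arrays just missed entry at 4.80. Only 1 of 4 Bmx probes was kept. It read 6.63, 6.12 and 6.02 under AngII and 6.11, 6.00 and 6.22 in sham (difference 0.15 ± 0.16, limma adjusted p = 0.651), while the other 3 were detected on none of the 6 KO arrays, and whether any lies in the altered part of the gene was not given. The kept probe averaged 6.54 under AngII and 6.43 in sham in wild type, against 6.26 and 6.11 in KO. Of the others, 1 was detected on 2 wild type arrays. The genotypes were not tested against each other here.

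All levels below are normalized log2 signals, and all differences are log2 AngII minus sham with their standard error from limma. P-values were adjusted by the Benjamini-Hochberg method across the 20319 probes, and "rose" and "fell" mark those below 0.05. With this test 690 probes (3.40%) were called, 412 higher (2.03%) and 278 lower (1.37%). An unadjusted limma p below 0.05 was reached by 4246 of the 20319 probes. That share is the background for the list counts at this threshold below. At least a 2-fold change was reached by 79 of the higher and 31 of the lower probes. With median scaling in place of quantile normalization, 626 probes were called higher and 87 lower, which moved the higher share from 59.7% to 87.8%, and the median difference of all genes from -0.02 to 0.08. Gene list medians between -0.15 and 0.11 took the other sign in some setting for 20 of 45 lists and are given as values only. The count fell to 298, 361 and 123 without AngII replicates 1, 2 and 3, and to 273, 387 and 102 without sham replicates 1, 2 and 3. Read by gene, 356 of 10816 brightest probes were called (3.29%), 204 higher (1.89%) and 152 lower (1.41%), and the 3 AngII and 3 sham arrays did not overlap in 26.7% of genes, 12.7% higher and 14% lower. Among probes 25.7% did not overlap, 12.9% higher and 12.9% lower. The shares of genes are the background for the counts of called list members below, and a count near them says nothing about its list. With probes split by level into 4 bins of equal size, 1.46% were called in the dimmest bin and 4.71% in the next to brightest.

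**Figure D1:**
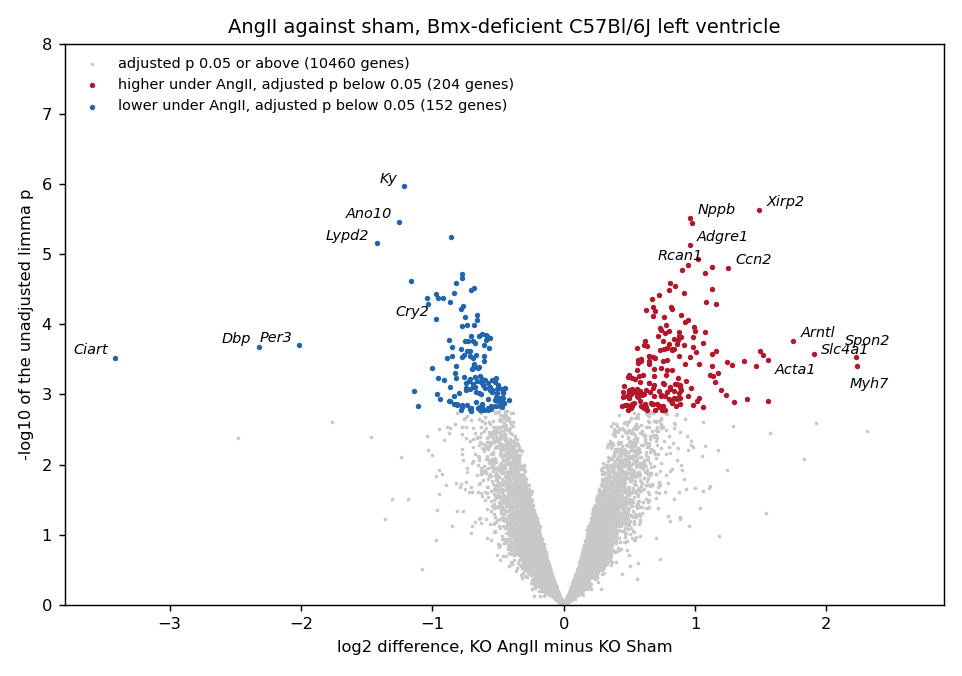
Log2 difference between AngII and sham (horizontal axis) against the -log10 unadjusted limma p (vertical axis) for 10816 genes of the KO ventricle, 3 arrays a group, each gene by its brightest probe. The 204 genes called higher are red, the 152 called lower are blue. Among the called genes the clock genes Ciart, Dbp and Per3 lie farthest to the left.

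The natriuretic peptides are hormones that the strained myocyte secretes to lower volume and pressure, and both rose. Nppb, the B-type peptide, read 14.25, 14.17 and 14.36 under AngII and 13.44, 13.17 and 13.28 in sham. That is a difference of 0.96 ± 0.12 (1.95-fold, adjusted p = 0.00774). Nppa, the atrial peptide, read 14.89, 15.23 and 14.81 under AngII and 14.12, 14.19 and 13.60 in sham, a difference of 1.00 ± 0.19 (2.01-fold, adjusted p = 0.0182). In each gene every AngII array was above every sham array. Of 7 genes measured in the list of these peptides, their receptors and convertases, 2 rose and none fell at a median of 0.14. The receptors Npr1 (0.02), Npr2 (0.20) and Npr3 (0.14), the protease Corin (-0.14) and Furin (-0.07) did not pass. Nppb stayed called in every run, and Nppa lost it without AngII replicate 2 and without sham replicate 3, where its adjusted p reached 0.0694.

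Sarcomere genes of the fetal programme were among the largest increases. Myh7, the slow beta myosin heavy chain, read 10.46, 10.30 and 9.24 under AngII and 7.30, 8.29 and 7.72 in sham, a difference of 2.23 ± 0.47 (4.70-fold, adjusted p = 0.0272). Acta1, skeletal alpha-actin, stood at 13.97, 13.94 and 13.96 under AngII and at 13.25, 12.16 and 11.80 in sham, a difference of 1.55 ± 0.32 (2.94-fold, adjusted p = 0.0251). The AngII arrays of Acta1 were nearly equal while its sham arrays spread over more than a log2 unit, with sham replicate 1 the nearest to AngII. Myh6, the adult alpha heavy chain, read 15.23, 15.21 and 15.38 against 15.41, 15.36 and 15.17, and its groups overlapped (-0.04 ± 0.11, adjusted p = 0.858). Of the 19 sarcomere genes measured 3 rose, the last being the Z-disc protein gene Myot at 0.67 ± 0.17 (adjusted p = 0.0466), and none fell, with a median of 0.03. Calls were lost in 4 of 6 runs without 1 array for Myh7 (adjusted p up to 0.0929), in 5 for Acta1 (up to 0.0961) and in 5 for Myot. Myh7 had 2 further probes, at 1.81 (adjusted p = 0.0396) and 1.61 (adjusted p = 0.0794).

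**Figure D2:**
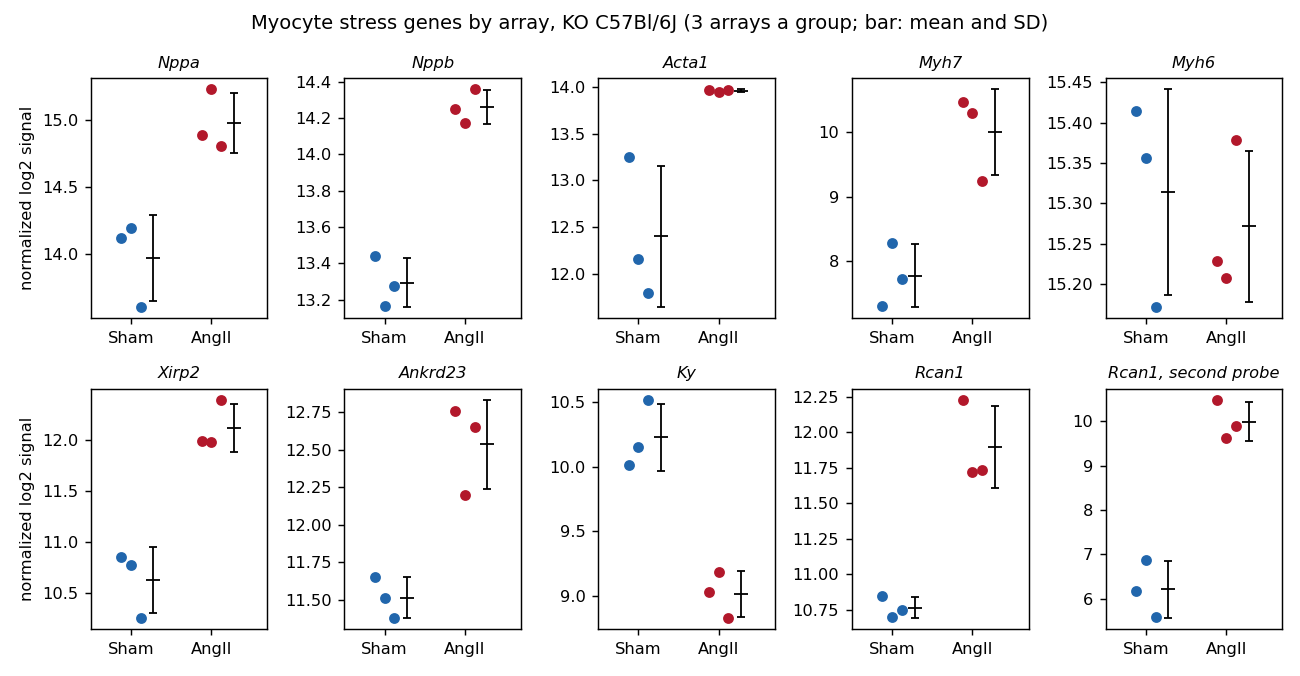
Normalized log2 signal of myocyte genes on each KO array, with sham in blue and AngII in red, 3 arrays a group, and the mean with its SD in black. Axes differ between panels. Only Myh6 has overlapping groups, and the second Rcan1 probe shows the widest gap of the 10 panels.

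Genes of the stretch-sensing Z-disc and the intercalated disc rose in 4 of 26 cases and fell in 1, with a median of 0.28 and 20 of 26 above 0. Xirp2, an actin-binding protein of the intercalated disc, read 11.99, 11.97 and 12.39 under AngII and 10.86, 10.77 and 10.25 in sham (1.49 ± 0.19, 2.81-fold, adjusted p = 0.00774). Ankrd23, a titin-associated stress protein, rose by 1.02 ± 0.15 (adjusted p = 0.0106), and the LIM protein genes Fhl1 by 0.69 ± 0.15 (adjusted p = 0.0323) and Pdlim3 by 0.58 ± 0.13 (adjusted p = 0.0356). Ky, which encodes a Z-disc protein needed for the growth of postural muscle, moved the other way. Its arrays read 9.03, 9.19 and 8.83 under AngII and 10.01, 10.15 and 10.52 in sham, a difference of -1.21 ± 0.14 (2.32-fold lower, adjusted p = 0.00730). Neither Xirp2 nor Ky had overlapping groups, and a second probe of each was called in the same direction, at 0.64 and -1.09. Tcap, the titin cap, stood at -0.63 (adjusted p = 0.0719) without overlap. Xirp2, Ankrd23 and Ky kept their calls in every run, while those of Fhl1 and Pdlim3 were lost in 5 and 6 of the 6 runs without 1 array.

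The smallest p of all 20319 probes belonged to the calcineurin feedback gene Rcan1, whose protein binds and restrains the phosphatase calcineurin and whose shorter transcript is a known target of NFAT. This probe is not the gene's brightest and was singled out after its values were seen. It read 10.48, 9.62 and 9.88 under AngII and 6.18, 6.88 and 5.59 in sham, a difference of 3.78 ± 0.32 (13.7-fold, adjusted p = 0.000576). The brightest Rcan1 probe read 12.23, 11.72 and 11.73 against 10.85, 10.70 and 10.75, a difference of 1.13 ± 0.17 (2.19-fold, adjusted p = 0.0106). No AngII array overlapped a sham array on either probe, and the dimmer probe showed the wider gap. Another dim probe detected on 1 of the 6 arrays stood at 0.45 (adjusted p = 0.243). The gene has separate starts in RefSeq, and the files do not say which transcript each probe reads. The window around the downstream start (GRCm38.p6, chr16:92400029-92400328, minus strand, 250 bases before to 50 after the start) is shown because NFAT control of Rcan1 is known for the transcript from there. Capitals mark the NFAT core GGAAA or its reverse complement.
Rcan1, downstream start: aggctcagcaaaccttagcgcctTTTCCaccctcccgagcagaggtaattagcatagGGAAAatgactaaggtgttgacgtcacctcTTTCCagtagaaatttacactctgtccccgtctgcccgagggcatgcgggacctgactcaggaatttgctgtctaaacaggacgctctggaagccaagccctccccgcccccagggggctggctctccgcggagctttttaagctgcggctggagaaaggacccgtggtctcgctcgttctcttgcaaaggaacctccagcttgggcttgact
It holds 3 matches on either strand, as do 9.42% of the 32851 promoter windows with 3 or more, and 61.3% hold at least 1. The upstream window (chr16:92466120-92466419, minus strand) holds 0. A match is a description of letters only.

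In the hypertrophic signalling list Rcan1 was the only 1 of 22 genes to pass, while 7 had an unadjusted limma p below 0.05 (against 4246 of the 20319 probes). Groups did not overlap on the higher side in 4 of the 22 (against 12.7% of all genes) and on the lower side in 5 (against 14%). The median of -0.04 covers members on both sides of 0. Hdac4, a class IIa histone deacetylase that represses MEF2 targets, was among the 20 genes that fell most. It read 7.74, 7.78 and 7.87 under AngII and 8.54, 9.10 and 8.62 in sham, a difference of -0.96 ± 0.16 (1.94-fold lower, adjusted p = 0.0123), and the groups did not overlap. Among ion channel subunits, 1 of 17 rose and 1 fell (against 1.89% and 1.41% of all genes). Kcnh2, the pore subunit of the rapid delayed rectifier, fell by 0.78 on the log2 scale (SE 0.13, adjusted p = 0.0139), and a second of its probes was called at -0.80. Its dimmest probe stood at 0.50 without passing (adjusted p = 0.340). Kcne1, a regulatory subunit of the slow delayed rectifier, rose by 0.89 ± 0.22 (adjusted p = 0.0466), a call lost in 5 of 6 runs without 1 array. Its dimmer probe stood at -0.03 without passing (adjusted p = 0.951). Of 15 calcium handling genes only the channel subunit Cacnb2 passed, at -0.71 ± 0.18 (adjusted p just below the threshold), and it was lost in all 6 such runs. The dimmer Cacnb2 probes stood at 0.42, 0.29 and -0.23 without passing. Grk5, a receptor kinase, rose by 0.66 ± 0.16 (adjusted p = 0.0458). Mas1, a receptor of the angiotensin-(1-7) arm, was detected on no AngII array and was at least 1.15-fold lower there (adjusted p = 0.0430). Without 1 array the Grk5 call was lost in 5 of 6 runs and the Mas1 call in all 6.

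Matrix genes rose in smaller numbers than their shared direction. Of 18 collagen genes 17 stood above 0, with a median of 0.44 against -0.02 for all genes, 11 had no overlap between groups on the higher side (12.7% of all genes), and 2 passed. Col3a1, a fibrillar collagen of the interstitium, read 6.78, 7.48 and 6.56 under AngII and 5.10, 5.99 and 5.17 in sham, a difference of 1.52 ± 0.31 (2.86-fold, adjusted p = 0.0241). Col16a1, a fibril-associated collagen, rose by 0.79 ± 0.16 (adjusted p = 0.0252). Col1a1, the main chain of type I collagen, did not pass at 0.60 ± 0.28 (adjusted p = 0.237). Its arrays at 9.52, 10.04 and 9.44 barely cleared the highest sham array at 9.37. Col1a2 (0.65, adjusted p = 0.0545) and Col8a1 (0.92, adjusted p = 0.0566) also missed the threshold while their groups did not overlap. The calls of Col3a1 and Col16a1 were lost in 3 and 5 of the 6 runs without 1 array, with adjusted p up to 0.0943 and 0.0974.

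Enzymes that shape collagen followed, with 2 of 17 higher. Lox, the lysyl oxidase that crosslinks collagen and elastin, read 6.84, 7.72 and 6.95 under AngII and 5.49, 5.49 and 5.87 in sham (1.55 ± 0.38, 2.94-fold, adjusted p = 0.0449). The collagen prolyl hydroxylase P3h2 rose by 0.78 ± 0.14 (adjusted p = 0.0165). AngII replicate 2 carried the highest Lox value, as it did for Col3a1 and Col1a1. The Lox call was lost under 4 of 11 alternatives and without each of the 6 arrays, the adjusted p reaching 0.124, while P3h2 was lost in 2 such runs.

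Proteases, their inhibitors and matricellular proteins held some of the highest differences. Timp1, an inhibitor of metalloproteinases, read 7.97, 7.61 and 7.70 under AngII and 6.59, 6.20 and 6.10 in sham (1.46 ± 0.31, 2.76-fold, adjusted p = 0.0270). Mmp3, stromelysin, rose by 1.38 ± 0.29 (adjusted p = 0.0254), and all 3 of its probes were called. Adamts7, a protease that cleaves cartilage oligomeric matrix protein, fell, from 7.72, 7.50 and 7.36 in sham to 6.29, 6.76 and 6.05 under AngII (-1.16 ± 0.18, 2.24-fold lower, adjusted p = 0.0112). These groups did not overlap, and 2 of 22 genes of this list rose and 1 fell at a median of 0.04. Ccn2, connective tissue growth factor, read 13.28, 13.61 and 13.52 against 12.21, 12.49 and 11.94 (1.25 ± 0.19, 2.38-fold, adjusted p = 0.0106). Spon2, a secreted adhesive protein of the spondin family, read 9.85, 10.17 and 9.18 against 8.27, 6.59 and 7.65 (2.23 ± 0.45, 4.68-fold, adjusted p = 0.0246). Sham replicate 2 was the low outlier of Spon2, yet no sham array reached an AngII array. Ccn2 and Spon2 were the 2 of 17 matricellular genes that rose. Timp1, Mmp3 and Spon2 lost their calls in 5, 4 and 5 of the 6 runs without 1 array, whereas Adamts7 and Ccn2 kept theirs throughout. The 3 Postn probes, for periostin, were detected on none of the 12 arrays.

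Microfibril and proteoglycan genes included markers of fibroblasts. Mfap5, a microfibril glycoprotein, read 9.60, 9.95 and 9.65 under AngII and 8.11, 8.54 and 8.08 in sham (1.49 ± 0.30, 2.81-fold, adjusted p = 0.0232). Lum, which encodes the leucine-rich proteoglycan lumican, read 10.54, 11.02 and 10.63 against 9.71, 9.61 and 9.93 (0.98 ± 0.19, 1.98-fold, adjusted p = 0.0197). A second Lum probe, chosen after its values were seen, stood at 1.56. On either gene every AngII array was above the sham range. Fibroblast markers as a list rose in 7 of 22 cases and none fell, at a median of 0.25. Meox1, a homeobox gene switched on in activated cardiac fibroblasts, read 9.53, 9.61 and 9.42 against 8.33, 8.51 and 8.34 (1.13 ± 0.18, 2.19-fold, adjusted p = 0.0118). Islr (0.93), Medag (0.90), Gsn (0.78) and Pi16 (0.69) also rose. The summed signal of the 22 markers spanned 15.09 to 15.30 under AngII and 14.75 to 14.87 in sham on the log2 scale. Of the other markers in the list, Pdgfra, Tcf21 and Dpt stood at 0.30, 0.01 and 0.40 and did not pass. Meox1 kept its call in every run. The TGF-beta list had 0 of 16 genes called at a median of 0.25, and 10 of the 16 stood above 0. An unadjusted limma p below 0.05 was reached by 7 of them, against 4246 of the 20319 probes.

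Macrophage and myeloid markers rose in 6 of 31 cases, none fell, and 25 stood above 0, for a median of 0.38. Adgre1, the F4/80 antigen, read 6.78, 7.24 and 7.14 under AngII and 6.02, 6.10 and 6.16 in sham, a difference of 0.96 ± 0.13 (1.95-fold, adjusted p = 0.00996). Lyz2, lysozyme, read 11.72, 11.80 and 11.47 against 10.76, 10.74 and 10.64 (0.95 ± 0.17, adjusted p = 0.0153). Both were separated on all arrays, and a second probe of each was called, at 1.05 and 1.30. The growth factor receptor Csf1r (0.68), the Fc receptor chain Fcer1g (0.65), Ms4a7 (0.76) and Gpnmb (0.58) completed the list. The dimmest Adgre1 probe stood at 0.21 and a dimmer Csf1r probe at 0.16, without passing. Of the defining leukocyte genes, Ptprc and Itgam were detected on none of the 6 arrays. The summed signal of the list spanned 14.67 to 14.78 under AngII and 14.18 to 14.41 in sham. Adgre1 kept its call in every run, and Lyz2, Csf1r, Fcer1g and Ms4a7 lost theirs in at least 1 run without 1 array. Against the 1.89% of all genes that rose, complement and cytokine genes rose in 2 of 31 cases (C2 by 1.11 ± 0.24 and Cd55 by 0.46 ± 0.12). Acute-phase genes rose in 2 of 25 (Serpina3n by 0.90 ± 0.17 and Socs3 by 0.65 ± 0.15). Without 1 array these calls were lost in 4 of 6 runs for C2, 6 for Cd55, 1 for Serpina3n and 4 for Socs3, and the Cd55 call also under 6 of 11 alternatives.

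Markers of granulocytes and lymphocytes gave 0 calls by limma among 9 measured genes, at a median of 0.47. Of the 9, 7 had an unadjusted limma p below 0.05, against 4246 of the 20319 probes. The median was 0.04 over the 24 genes left without a filter on dim probes, 0.15 without background correction and 0.69 over the 6 genes of the stricter filter. S100a8, a neutrophil alarmin, read 8.57, 8.28 and 6.99 under AngII and 6.02, 5.09 and 5.81 in sham, a difference of 2.31 ± 0.64 that missed the threshold (adjusted p = 0.0667). Its groups did not overlap, but AngII replicate 3 lay 1 unit above sham where the other AngII arrays lay more than 2 above. Of the 24 genes of the list on the array, 10 were detected on none of the 6 KO arrays, among them Cd3d, Cd4, Cd8a, Mpo and Camp. Erythroid genes rose in 2 of 11 cases with 10 above 0 and a median of 0.30. Slc4a1, the erythrocyte anion exchanger, read 8.39, 8.43 and 7.71 against 6.14, 6.11 and 6.56 (1.91 ± 0.39, 3.75-fold, adjusted p = 0.0241), a call lost in 5 of 6 runs without 1 array (adjusted p up to 0.0662). The erythroid enzyme gene Alas2 stood at 1.11 (adjusted p = 0.152) with overlapping groups, and the haemoglobin gene Hba-a1 at 0.24 (adjusted p = 0.448). The part of blood in these values was not tested.

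Read by brightest probe, vessel and surface cell markers gave 0 calls: 0 of 25 endothelial genes (median -0.11), 0 of 21 arterial, venous and endocardial genes (-0.12), 0 of 22 smooth muscle and pericyte genes (0.02) and 0 of 6 epicardial genes (0.23). By unadjusted limma p below 0.05 the numbers were 4, 7, 5 and 2, against 4246 of the 20319 kept probes. The endothelial median turned to 0.01 under median scaling. The endothelial gene Egfl7 stood at -0.26 ± 0.12 (adjusted p = 0.240) and the VEGF receptor Flt1 at 0.10 ± 0.14 (adjusted p = 0.728). Acta2, of the smooth muscle list, stood at 0.40 ± 0.16 on its brightest probe (adjusted p = 0.163). A dimmer Acta2 probe was called at 0.86 ± 0.16 (adjusted p = 0.0206), and the others stood at 0.33 and 0.51 without passing. The epicardial marker Upk3b read 5.73, 6.04 and 7.53 under AngII and 5.07, 4.64 and 4.88 in sham (1.57 ± 0.44, adjusted p = 0.0690). One array, AngII replicate 3, was highest there.

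**Figure D3:**
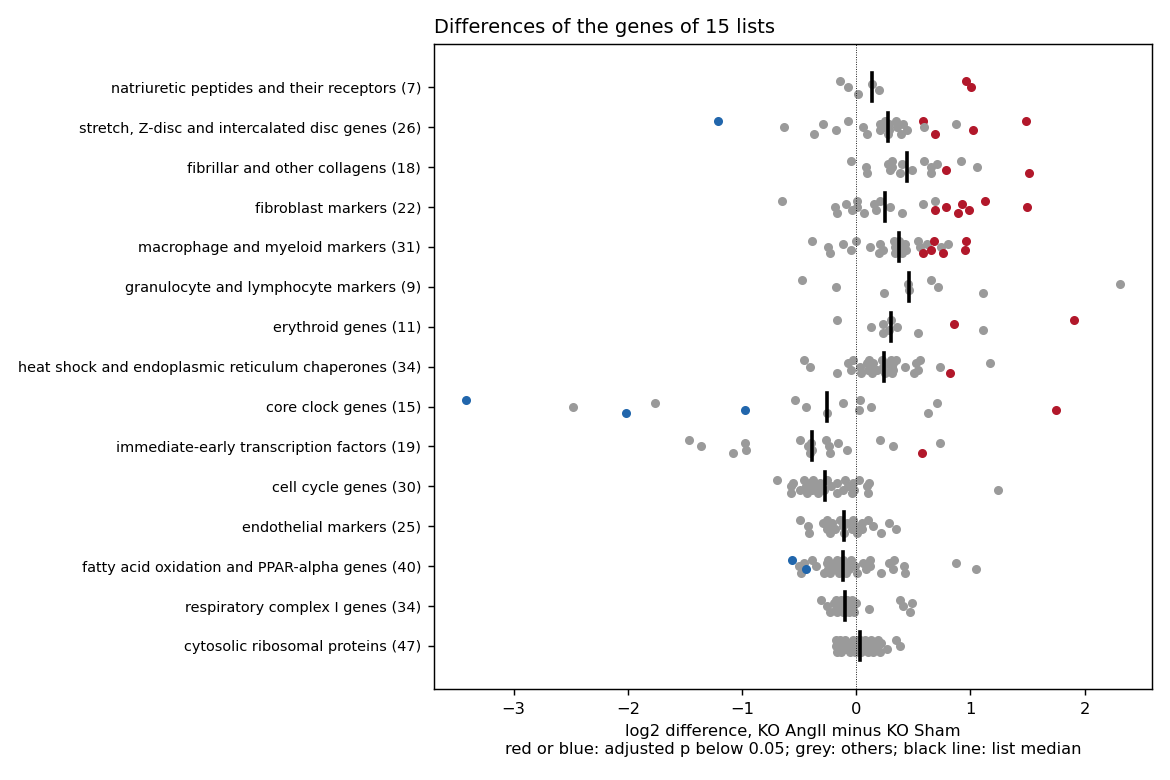
Log2 difference between AngII and sham for every measured gene of 15 lists in the KO ventricle, with the number of genes in brackets. Called genes are red (higher) or blue (lower), others grey, and the black line is the list median, which lies at 0.44 for collagens, 0.38 for macrophage markers and -0.26 for core clock genes.

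Clock genes held the largest called decreases of the comparison. The mammalian clock runs on the activators encoded by Arntl, Clock and Npas2, which drive the repressors of the Per, Cry and Ciart genes and output genes such as Dbp and Tef, whose products bind D-boxes. Ciart, a repressor of the activator complex, read 6.10, 5.26 and 7.16 under AngII and 9.60, 9.62 and 9.53 in sham, a difference of -3.42 ± 0.70 (10.7-fold lower, adjusted p = 0.0246). Its sham arrays were nearly equal and its AngII arrays spread over almost 2 log2 units. Dbp read 10.54, 9.71 and 11.25 against 12.64, 12.77 and 13.05 (-2.32 ± 0.46, adjusted p = 0.0223). Per3, a period gene, read 6.22, 5.31 and 6.40 against 7.66, 8.06 and 8.26 (-2.01 ± 0.39, 4.04-fold lower, adjusted p = 0.0217). No AngII array of these genes came near the sham range, and AngII replicate 2 was the lowest of all.

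The activator Arntl moved the opposite way, at 6.70, 7.30 and 6.43 under AngII and 5.56, 4.80 and 4.82 in sham (1.75 ± 0.34, 3.36-fold, adjusted p = 0.0206). AngII replicate 2, lowest for Ciart, Dbp and Per3, was highest for Arntl. The other activators did not pass, with Npas2 at adjusted p = 0.0637 and Clock at 0.63 ± 0.21 (adjusted p = 0.112). Cry2, a cryptochrome repressor, fell by 0.97 on the log2 scale (SE 0.17, adjusted p = 0.0151), and the output genes Tef by 1.11 (adjusted p = 0.0470), Tspan4 by 0.91 (adjusted p = 0.0342) and Usp2 by 0.86 (adjusted p = 0.0383). A dimmer Tspan4 probe stood at 0.01 and the dimmest Usp2 probe at -0.04, without passing. Per1 and Per2 lay far below sham without passing, at -1.76 ± 0.47 (adjusted p = 0.0589) and -2.48 ± 0.71 (adjusted p = 0.0731). Per2 read 7.52, 6.20 and 9.33 against 9.48, 11.04 and 9.97, so that AngII replicate 3 nearly reached the sham range. The nuclear receptor repressors Nr1d1 (-0.44) and Nr1d2 (-0.53), Rora (-0.26), Rorb (0.13), Bhlhe40 (0.03), Csnk1d (-0.11), Csnk1e (0.03) and Hlf (0.04) did not pass. By list 1 of 15 core clock genes rose and 3 fell at a median of -0.26, and 5 of 21 output genes fell at a median of 0.04, with Ciart counted in both lists. Without 1 array the calls were lost in 5 of 6 runs for Ciart, 3 for Dbp, 2 for Per3, 3 for Arntl, 2 for Cry2, 5 for Tspan4 and all 6 for Tef and Usp2 (adjusted p up to 0.146 for Tef and 0.115 for Usp2), always including the run without sham replicate 3 for Ciart, Dbp, Per3 and Arntl (adjusted p 0.0819, 0.0848, 0.0855 and 0.0813). The time of day of tissue collection was not given in the sources used here.

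Promoter windows of Ciart (GRCm38.p6, chr3:95882179-95882478, minus strand) and Per3 (chr4:151044616-151044915, minus strand) are printed because both genes fell and their windows hold known clock motifs. They were chosen after the motif counts were seen. Capitals mark the E-box CACGTG, bound by the activators, in Ciart and the D-box TTATGTAA in Per3.
Ciart: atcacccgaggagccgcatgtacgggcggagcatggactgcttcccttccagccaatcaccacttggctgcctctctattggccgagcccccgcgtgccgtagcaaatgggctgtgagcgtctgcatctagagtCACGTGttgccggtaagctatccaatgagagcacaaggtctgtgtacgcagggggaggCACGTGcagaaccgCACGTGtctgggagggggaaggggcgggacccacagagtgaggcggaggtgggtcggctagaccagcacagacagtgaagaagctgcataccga
Per3: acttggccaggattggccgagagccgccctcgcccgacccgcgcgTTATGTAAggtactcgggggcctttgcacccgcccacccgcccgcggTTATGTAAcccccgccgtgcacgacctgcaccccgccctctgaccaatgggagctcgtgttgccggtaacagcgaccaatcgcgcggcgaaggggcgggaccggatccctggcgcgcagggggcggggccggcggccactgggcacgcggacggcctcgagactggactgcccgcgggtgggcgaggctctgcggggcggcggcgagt
Searched on both strands, Ciart held 3 E-boxes, a number that 0.0883% of the 32851 windows reach, and 7.15% hold at least 1. Per3 held 2 D-boxes, counted as TTATGTAA or TTACGTAA, which 0.0244% reach and 1.06% hold at least once. As the windows were picked for their matches, these shares describe how frequent the letters are and test nothing. Neither motif overlaps the other in these windows. Each of the 2 Tef windows and 1 window each of Per1 and Tspan4 held 1 E-box. The windows of Dbp, which fell by more than Per3, and those of Cry2, Arntl, Clock, Npas2 and Usp2 held neither motif, which says nothing of sites elsewhere in those genes.

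**Figure D4:**
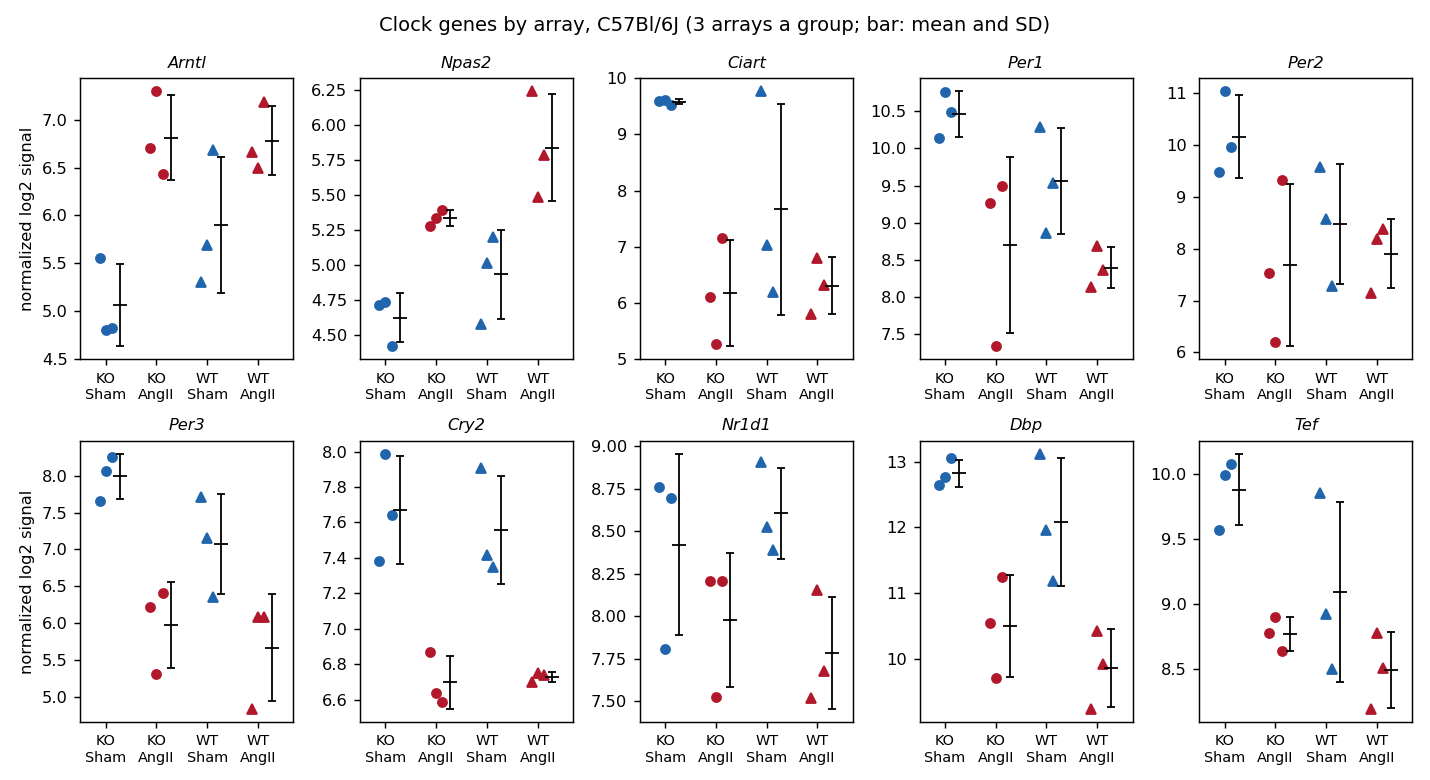
Normalized log2 signal of 10 clock genes on the 12 C57Bl/6J arrays, KO as circles and WT as triangles, sham in blue and AngII in red, with the mean and SD in black. Axes differ between panels. The KO sham arrays of Ciart sit between 9.53 and 9.62, above all KO AngII arrays, while WT sham arrays spread from 6.18 to 9.77.

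Among wild type sham arrays, Ciart read 9.77, 7.03 and 6.18, and Dbp 13.12, 11.96 and 11.18, so the KO sham arrays were the more uniform of the sham groups for these genes. Wild type replicate 1 was the highest of its sham group on both. The difference of the AngII responses, KO minus wild type, did not pass for any clock gene named here, with Ciart at -2.06 ± 0.99 (limma adjusted p = 0.618), Arntl at 0.87 ± 0.48 (adjusted p = 0.664) and Dbp at -0.10 ± 0.65 (adjusted p = 0.984). In Bmx-deficient Balb/C ventricle the same genes stood on the other side of 0, with Ciart at 1.80 ± 0.33, Dbp at 1.28 ± 0.40, Per3 at 0.56 ± 0.31 and Arntl at -0.73 ± 0.18, and the strains were not tested against each other.

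Few metabolic genes passed the test. Of 40 genes of fatty acid oxidation 12 were lower without overlap (against 14% of all genes), at a median of -0.12. An unadjusted limma p below 0.05 was reached by 11 of them, against 4246 of the 20319 probes, and 2 fell. The carnitine acetyltransferase Crat fell by 0.56 on the log2 scale (SE 0.11, adjusted p = 0.0201) and the short-chain dehydrogenase Acads by 0.44 (SE 0.10, adjusted p = 0.0387). The Acads call was lost in all 6 runs without 1 array and under 3 of 11 alternatives (adjusted p up to 0.257), and the Crat call in 3 runs and under 2 alternatives (up to 0.102). Their arrays did not overlap, with Crat at 11.11, 11.14 and 11.03 against 11.69, 11.61 and 11.66. The other kept Crat probes, which were dimmer, stood at 0.11 and 0.23 without passing. Respiratory complex I had 0 of 34 genes called by limma (4 at an unadjusted p below 0.05) and 5 above 0, at a median of -0.10, and complexes II to V had 0 of 39 (5 at an unadjusted p below 0.05) at -0.05. Pdp2, a phosphatase that activates pyruvate dehydrogenase, read 10.61, 10.62 and 10.65 against 11.68, 11.12 and 11.64 (-0.85 ± 0.17, 1.81-fold lower, adjusted p = 0.0223), and all 3 of its probes were called lower, although the call of the brightest was lost in 5 of 6 runs without 1 array. Among 28 genes of glucose handling, Pdp2 included, 9 were lower without overlap (against 14% of all genes) and 2 fell, at a median of -0.13. G0s2, an inhibitor of the lipase that breaks down triglyceride, read 9.11, 9.25 and 9.44 against 10.05, 10.64 and 10.21 (-1.03 ± 0.17, 2.05-fold lower, adjusted p = 0.0132). It kept its call in every run, and its wild type difference was -0.03 ± 0.17, while the difference of responses did not pass (-1.003 ± 0.25, adjusted p = 0.328). Dld, the dihydrolipoamide dehydrogenase shared by the keto acid dehydrogenases, rose by 1.17 ± 0.25 (adjusted p = 0.0310), a call lost in 5 of 6 runs without 1 array. Cytosolic ribosomal proteins, a group of bright housekeeping probes, had 0 of 47 genes called by limma, 3 at an unadjusted p below 0.05, and a median of 0.03.

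The remaining genes of the 20 highest and 20 lowest shared no list with each other. Higher were the TWEAK receptor Tnfrsf12a (1.30), Dkk3, a secreted Wnt modulator (1.39), Pamr1 (1.28), the NADPH oxidase Nox4 (1.23), the membrane insertase subunit Emc7 (1.25), Tmem144 (1.20) and the depalmitoylase Abhd17c (1.16). A dimmer Abhd17c probe stood at -0.30 without passing, and other Tmem144 probes at 0.19 and 0.54, also without passing. Tnfrsf12a read 11.33, 9.69 and 11.13 against 9.41, 9.62 and 9.22, so AngII replicate 2 lay just above the highest sham array. Dkk3 was in the list of atrial markers, where 2 of 8 measured genes rose (Nppa and Dkk3) and 1 fell (Tbx5, -0.74), at a median of 0.15. Nox4 was in the list of nitric oxide, cGMP and redox genes, where 1 of 33 rose, against 1.89% of all genes. Lower were Lypd2 (-1.42), the anoctamin Ano10 (-1.25), the water channel Aqp4 (-1.14), the anion exchanger Slc26a6 (-1.04), the transcription factor Bcl11b, the cadherin Celsr2 (-0.97), Gdf10, a member of the BMP family (-0.96), periplakin Ppl (-0.96), Tob2 (-0.95) and the dynein assembly factor Dnaaf3 (-0.92). Ano10 read 8.32, 8.43 and 8.55 against 9.54, 9.66 and 9.87 (adjusted p = 0.00774), and Lypd2 read 5.06, 5.13 and 5.23 against 6.35, 6.70 and 6.64 (adjusted p = 0.00996). Replicates of these genes were tight in both groups. A dimmer Ppl probe stood at -0.25 without passing. Ano10, Lypd2, Slc26a6 and Dnaaf3 kept their calls in every run, and each of the other genes of this paragraph lost its call in at least 1 run without 1 array.

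To place the KO response beside wild type, the difference of the 2 AngII responses was tested on the same 12 arrays. Only 8 of 20319 probes passed (0.0394%), 2 higher and 6 lower, and 1685 probes had an unadjusted p below 0.05. Of the 8, 6 were the brightest probe of a gene (0.0555% of 10816 genes), and the other 2 were not. Of the 356 genes called in KO, 337 (94.7%) had the same sign in wild type, against 67.9% of all genes, and 284 of the 345 also kept in the Balb/C table (82.3%) had the same sign in Bmx-deficient Balb/C, against 62.5% of all genes. In 19 called genes the signs differed between the C57Bl/6J genotypes, among them Cited2, a transcriptional coregulator, H2-Aa, a class II antigen chain, the formyl peptide receptor Fpr2 and the ubiquitin ligase Marchf8. Cited2 read 10.25, 10.51 and 10.22 under AngII and 9.97, 9.50 and 9.77 in sham in KO (0.58 ± 0.13, adjusted p = 0.0396), and its wild type difference was -0.58 ± 0.13. That difference of 1.15 ± 0.19 between the responses did not pass (adjusted p = 0.0849). These values are from the brightest Cited2 probe. Its other kept probes stood on the other side of 0 in KO, at -0.36 and -0.40, without passing (adjusted p = 0.253 and 0.232).

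Of the 6 genes whose responses differed, 5 had no called change in KO. Among them Mmrn1 passed the probe filter only through the wild type AngII arrays, so its call is not taken as support. Wdfy1, an endosomal adaptor gene, read 8.45, 8.30 and 8.60 under AngII and 8.19, 7.98 and 8.17 in sham in KO (0.34 ± 0.12, adjusted p = 0.133) but stood at -1.82 ± 0.12 in wild type. Plac9a read 6.51, 6.01 and 6.50 against 6.11, 6.33 and 6.47 in KO (0.04 ± 0.18) and stood at 2.43 ± 0.18 in wild type. Rab4a, an endosomal GTPase, read 8.18, 8.32 and 8.21 against 8.19, 8.14 and 8.29 in KO (0.03 ± 0.12) and stood at -1.46 ± 0.12 in wild type. For each of them the KO groups overlapped or nearly met, and the wild type AngII arrays stood apart. Whether this marks a response to AngII or another trait of those wild type samples was not tested. Tmem267 was the only 1 called in both tests: it fell by 0.69 on the log2 scale in KO (SE 0.16, adjusted p = 0.0367), a call lost in all 6 runs without 1 array, and stood at 0.87 ± 0.16 in wild type. For leading genes of the KO response the difference of responses did not pass, at 0.90 ± 0.67 for Myh7 (limma adjusted p = 0.759), 1.14 ± 0.64 for Spon2 (adjusted p = 0.676), -1.22 ± 0.54 for Slc4a1 (adjusted p = 0.598) and -0.98 ± 0.45 for Acta1 (adjusted p = 0.601), which does not show that the genotypes responded alike.

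**Figure D5:**
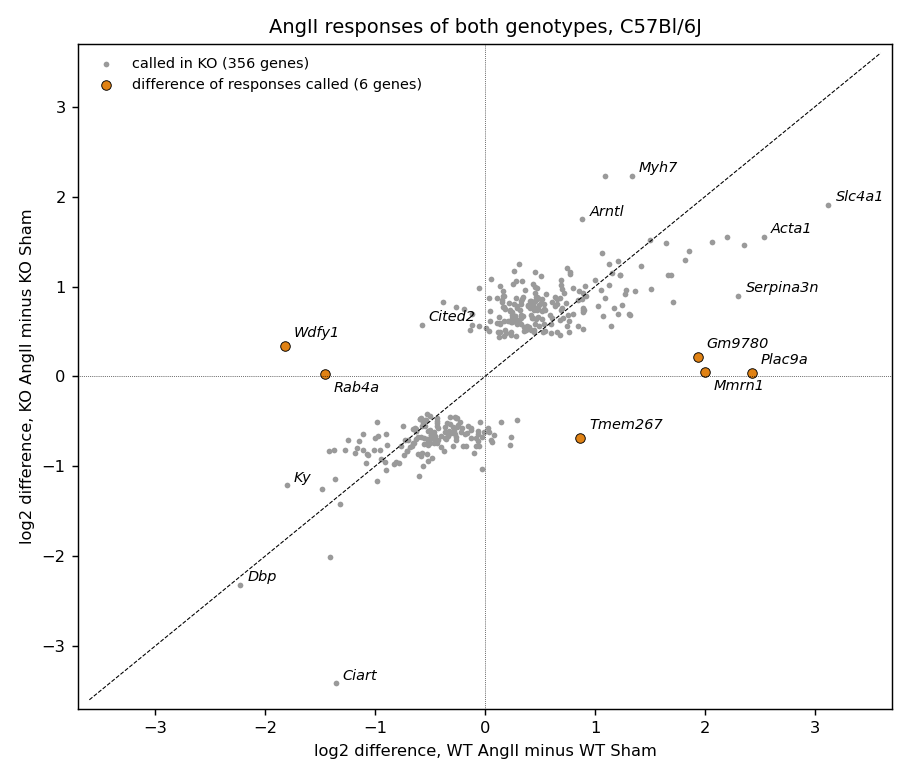
Log2 AngII minus sham difference in wild type (horizontal axis) and KO (vertical axis) C57Bl/6J ventricle for the 356 genes called in KO (grey) and the 6 genes whose responses differed (orange), with the line of equal differences dashed. Selection on the KO values keeps grey points away from 0 on the vertical axis, and 337 of them share the sign of wild type.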

How the data were processed

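The authors deposited per-probe intensity on a linear scale, in 1 table per strain named as non-normalized. A detection p-value was deposited beside every intensity, per the file headers. A series table of log2 values was deposited as well and served as an alternative: its scale and its equal distribution over the arrays of a strain were read from the values, and the normalization settings are not stated. Per the labels' protocols, left ventricle RNA was purified with TRIsure and NucleoSpin columns and labelled with a MessageAmp kit. The sources used here give neither scanner software nor slides. All columns were matched to samples by name. Among the Balb/C values, 313 detection p-values without a decimal point were read as 1.

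C57Bl/6J intensities were background-corrected and quantile-normalized with neqc (detection p, offset 16) of limma 3.58.1 in R 4.3.3. Probes with detection p below 0.05 on at least 3 of 12 arrays were kept. A linear model with 4 group means (8 residual and 4.98 prior degrees of freedom) gave 2 contrasts, AngII against sham in KO and its difference from wild type, adjusted by Benjamini-Hochberg over all kept probes. Of the kept probes 17158 had 1 gene symbol, 7 several and 3154 none listed. A probe detected on no array of the lower group has only a bound: the brighter mean is set against the higher, per array, of the dim value and the lowest detected signal.

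Named genes were the 20 highest and 20 lowest called genes with separated groups (predicted genes and clone names left out), up to 5 called members of each of 45 gene lists or its 2 brightest, a fixed set of heart and clock genes, and the genes called in the second contrast. The members and lists were chosen with earlier results of these data known. Promoter sequences came from RefSeq (GRCm38.p6). Alternatives were no background correction, an offset of 50, median scaling, no filter, a filter at detection p below 0.01, genes, array weights, a trended prior, a block for the replicate number, a fit to the 6 arrays alone, the deposited log2 values, and each array left out. On simulated data with this design and 20319 probes, 10.4%, 83.6% and 100% of probes changed by 0.5, 1 and 2 on the log2 scale were called in the KO comparison.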

Additional observations from a re-analysis of the deposited data

Results flagged for a closer look

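The AngII responses of KO and wild type C57Bl/6J ventricle differed in a test of the difference itself for 6 genes, with limma adjusted p-values of 0.00176 for Plac9a, 7.55e-05 for Wdfy1, 0.00279 for Mmrn1, 0.00724 for Gm9780, 0.0219 for Tmem267 and 0.00322 for Rab4a. In KO minus wild type terms the differences were -2.39 ± 0.25 for Plac9a, 2.16 ± 0.17 for Wdfy1, -1.72 ± 0.22 for Gm9780, -1.56 ± 0.22 for Tmem267 and 1.49 ± 0.17 for Rab4a. Mmrn1, a protein of platelets and endothelium, was detected on all 3 wild type AngII arrays, at 6.75, 6.24 and 6.93, and on none of the 6 KO arrays or the wild type sham arrays, so no size is given. Its probe passed the filter only through the arrays where it is high. The filter thus chose it for the pattern tested, and its p-value is not taken as support. Gm9780 read 5.58, 5.45 and 5.41 under AngII and 5.22, 5.17 and 5.40 in sham in KO, and 7.32, 7.45 and 7.49 against 5.35, 5.87 and 5.24 in wild type. For Plac9a, Wdfy1, Gm9780 and Rab4a the 3 wild type AngII arrays stood outside the range of all 9 other C57Bl/6J arrays. The contrast cannot tell a response to AngII from another trait of those wild type samples, and this was not tested. Tmem267 lost this call in 10 of 22 other settings, with an adjusted p up to 0.099, while the other 5 genes kept theirs in every setting that tested them.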

How the results depend on the processing

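The count of 690 probes called in KO was 1385 without background correction, 1329 with an offset of 50, 426 without a filter on dim probes, 400 among genes, 1397 with a trended prior, 313 from the 6 arrays alone and 1372 with the deposited log2 values. It was 713, 870 and 771 with median scaling, the stricter filter and array weights, and 102 to 387 without 1 array, with the lowest counts for sham replicate 3 (102) and AngII replicate 3 (123). The cause of these shifts was not tested. The 8 probes with different responses became 20 without background correction, 21 with an offset of 50, 20 with a trended prior and 20 with the deposited log2 values, and 7 to 11 without 1 array. Of 82 named genes called, 36 kept their call under every alternative, 15 of these also when any 1 array was left out, and 0 reversed. They were Xirp2, Ccn2, Lypd2, Ano10, Ky, Adamts7, Slc26a6, G0s2, Hdac4, Dnaaf3, Nppb, Ankrd23, Rcan1, Meox1 and Adgre1. Of the 82, 62 were lost without sham replicate 3 and 53 without AngII replicate 3. With the replicate number as a block 466 probes were called in KO and 21 of the 82 named calls were lost. Over all kept probes, deviations of same-numbered AngII and sham arrays correlated at -0.03, -0.09 and -0.146. These values do not settle whether the numbers pair the samples for some genes. Medians of 20 of 45 lists took the other sign in some setting, all lying between -0.15 and 0.11 here.

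Depth is unknown for arrays, and probes near background carry compressed differences. With 3 arrays a group a change of 0.5 on the log2 scale was rarely recovered on simulated data, so a gene that missed the threshold is not shown to be unchanged. The labels do not give separate animals, allele, age or time of collection.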

Other observations

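Immediate-early genes, which respond within minutes to handling, injury or load, were lower under AngII in most cases without passing the test. Of 19 measured genes 4 stood above 0, the median was -0.39, and 1 was called (Cited2, higher on its brightest probe). The other kept Cited2 probes stood at -0.36 and -0.40 without passing. The median lay between -0.57 and -0.02 without 1 array, the latter without sham replicate 2, and the Cited2 call was lost in 5 of 6 such runs and under 4 of 11 alternatives. Egr1 read 9.89, 12.72 and 11.18 under AngII and 12.19, 13.43 and 12.24 in sham (-1.36 ± 0.66, limma adjusted p = 0.261). Fos read 6.60, 10.33 and 7.05 against 8.69, 10.81 and 7.71 (-1.08 ± 1.02, adjusted p = 0.591). Zfp36 stood at -1.47 ± 0.42 (adjusted p = 0.0724). On all 3 genes replicate 2 was the highest array of its group, under AngII and in sham alike, and the matricellular gene Ccn1, read at 7.97, 9.17 and 7.91 against 9.50, 10.20 and 8.91, also had replicate 2 highest in both groups. These genes were chosen after their values were seen.

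Genes read by several probes gave a check within the arrays. Of 4259 genes with several kept probes, 317 had a called probe, 48 had 2 or more, and in 0 of these were probes called in opposite directions, while in 85 of the 317 not all probes shared a sign. All 3 probes were called for Mmp3, Pdp2, Pik3r1, Ncoa4 and Uck2. Pik3r1, the regulatory subunit of phosphoinositide 3-kinase, stood at -0.61, -0.69 and -0.88. Ncoa4, a receptor for the autophagy of ferritin, stood at 0.77, 0.88 and 0.88, and the uridine-cytidine kinase Uck2 at 0.83, 0.79 and 0.90. Cytoskeletal genes rose in 2 of 40 cases (against 1.89% of all genes), with the tubulins Tuba1a at 0.82 ± 0.14 and Tubb6 at 0.76 ± 0.16 (adjusted p = 0.0137 and 0.0253).

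Chaperones of the cytosol and endoplasmic reticulum stood above 0 in 28 of 34 cases at a median of 0.25. Against 3.29% of all genes, 1 of the 34 was called (Hspe1, 0.82 ± 0.20, adjusted p = 0.0447, lost in 5 of 6 runs without 1 array). Cell cycle genes had 0 of 30 called by limma (9 at an unadjusted p below 0.05, against 4246 of the 20319 probes) and 5 above 0 at a median of -0.27. Among the 3161 kept probes with no or several gene symbols, 97 (3.07%) were called, against 3.46% of probes with 1 symbol.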
